A study of Mus musculus with 6 samples.

Results

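Heat shock protein genes were followed in primary mammary epithelial cells that lack Plk2, a polo-like serine/threonine kinase. The genes were 10 chaperone genes chosen by name (Hspa1a, Hspa1b, Hspa8, Hsp90aa1, Hsp90ab1, Hspb1, Dnajb1, Hsph1, Hspd1 and Hspe1), of 20145 genes with a matched probe on the array. A total of 14 probes matched 9 of them through their RefSeq transcript; none was matched to Hspa1b, whose level was not analysed here. One group held 3 samples labelled wild type and the other 3 samples labelled Plk2 -/- (called null below), all from female mice of the 129sv/C57Bl6 strain at 8 weeks of age. The cells came from dissociated mammary glands, and RNA of each sample was hybridised to its own 1-colour Agilent array. The sources used here do not say how the Plk2 allele was made or whether samples were pooled from several animals, and where samples of a group came from the same source, p-values measure only the spread between these samples.

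Heat shock proteins are molecular chaperones: they hold, refold or pass on proteins that have lost or not yet reached their fold. HSP70 proteins work in a cycle of ATP binding that J-domain proteins start and nucleotide exchange factors such as the HSP110 proteins reset, HSP90 proteins finish the folding of kinases and steroid receptors, small heat shock proteins hold unfolded chains without ATP, and the HSP60 chaperonin with its lid HSP10 folds proteins inside mitochondria. Many of these genes are induced by the heat shock factor HSF1, which binds repeated GAA units of alternating direction in their promoters, so that transcript levels of the inducible members serve as a readout of protein stress, also of the stress of taking a tissue apart.

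Promoter sequences show how the members differ in these units. RefSeq promoter windows (build GRCm38.p6, 250 bases before to 50 after an annotated start) were matched for 7 of the 10 genes, with 10 windows, and were searched on both strands for head-to-head units (GAANNTTC), tail-to-tail units (TTCNNGAA), 3 alternating units (a head-to-head and a tail-to-tail match that share their middle 3 letters, in either order, and so contain both of the others) and the CCAAT box (CCAAT). The 150 bases before the start are shown for the 4 members whose inducible or mitochondrial role the values below turn on and for Dnajb1, which had no such match; capitals mark matches to the first 3 motifs.
Hspa1a: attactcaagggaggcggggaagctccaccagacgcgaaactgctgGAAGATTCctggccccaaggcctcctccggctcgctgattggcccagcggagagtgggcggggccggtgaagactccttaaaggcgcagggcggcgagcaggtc
Hspb1: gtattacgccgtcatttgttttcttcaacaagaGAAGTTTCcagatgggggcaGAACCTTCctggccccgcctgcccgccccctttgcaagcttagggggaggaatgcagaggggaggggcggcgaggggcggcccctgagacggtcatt
Hsph1: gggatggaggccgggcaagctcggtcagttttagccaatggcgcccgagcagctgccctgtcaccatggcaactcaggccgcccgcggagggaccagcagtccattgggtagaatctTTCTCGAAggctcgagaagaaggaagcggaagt
Hspe1: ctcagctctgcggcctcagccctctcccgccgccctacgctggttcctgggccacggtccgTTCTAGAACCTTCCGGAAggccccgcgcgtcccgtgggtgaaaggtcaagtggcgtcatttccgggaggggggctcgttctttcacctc
Dnajb1: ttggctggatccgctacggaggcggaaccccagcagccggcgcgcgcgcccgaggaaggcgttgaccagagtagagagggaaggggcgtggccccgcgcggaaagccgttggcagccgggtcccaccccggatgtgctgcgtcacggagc
These stretches lie at chr17:34972157-34972306 (minus strand), chr5:135887769-135887918 (plus strand), chr5:149636337-149636486 (minus strand), chr1:55087998-55088147 (plus strand) and chr8:83608025-83608174 (plus strand). The Hspa1a and Hspa1b windows differed at 4 of 300 bases, and in the 150 bases shown Hspa1b differed from Hspa1a only by T149G, counted from 1 at the 5' end. Hspd1 and Hspe1 are transcribed away from each other, and 285 bases of the Hspe1 window are the reverse complement of an Hspd1 window. The run of overlapping tail-to-tail and head-to-head matches printed for Hspe1 is therefore also that of Hspd1.

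**Figure D1:**
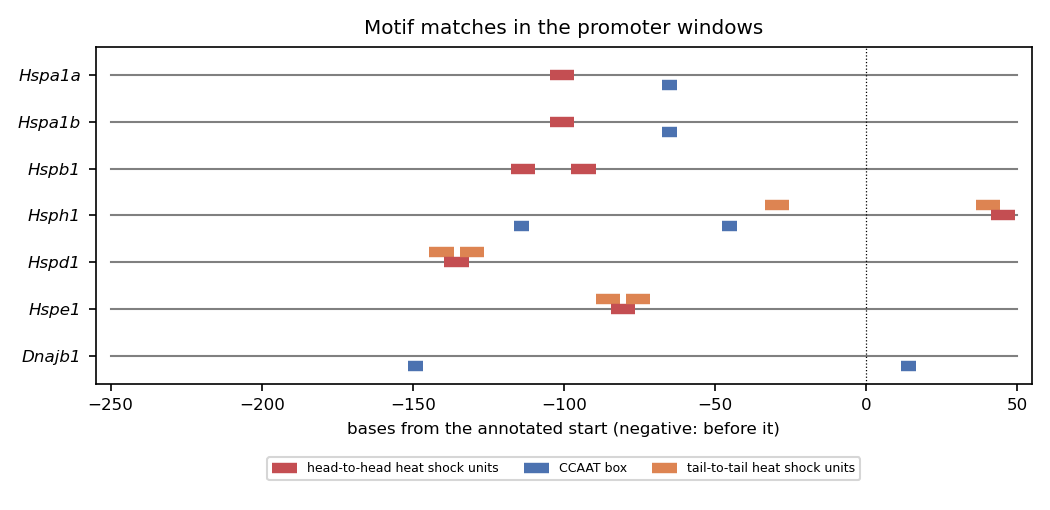
Motif matches in 1 promoter window of each of 7 genes; the x axis gives bases from the annotated start and bars give the extent of a match. Hspa1a and Hspa1b carry 1 head-to-head match at the same place, Hspb1 carries 2, and Hspd1 and Hspe1 share 1 run of 3 overlapping matches.

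Head-to-head units were present in 7 of the 10 member windows, against 7.86% of all 32851 windows of this length. Tail-to-tail units were present in 4 of 10, against 8.52% of all windows, and 3 alternating units in 4 of 10, those of Hspd1, Hspe1 and Hsph1, against 0.603%. The Hsph1 run of 3 units lay after the annotated start, at bases 37 to 49 from the more upstream of its 2 starts. A CCAAT box was present in 6 of 10 windows, against 37.4%. Several of these windows share bases, the 2 of Hsph1 and those of Hspd1 and Hspe1, and a match is a run of letters, not a measured binding site.

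The labels held for Plk2. Its probe gave processed signals of 1169, 1160 and 1472 in wild-type samples 1 to 3 and of 2.44, 1.93 and 1.88 in null samples 1 to 3, where it was not well above background; by the lowest signals measurable on the null arrays it was at least 152.3-fold lower there (limma adjusted p of the measured values = 3.66e-06). Whether this probe lies in the deleted part is not stated in these sources. Epithelial markers were measured in both groups, with 15 of 15 tested, 10 above 0 and a median difference of 0.09 (-0.0074 without wild-type sample 1), and none was below background on all arrays of a group. Krt8, a luminal keratin, differed by -0.10 (SE 0.18), Krt18 by 0.06 (SE 0.16), Krt5, a basal keratin, by 0.96 (SE 0.44), Krt14 by 0.91 (SE 0.34) and the adhesion gene Epcam by 0.09 (SE 0.21), all on the log2 scale with limma adjusted p from 0.179 to 0.852. Among the other markers, named after their values were seen, the alveolar transcription factor gene Elf5 differed most, by 1.70 (SE 0.29; limma adjusted p = 0.0566), while Cldn4, a tight junction gene, differed by -0.71 (SE 0.24) and the basal marker Trp63 by -0.25 (SE 0.16). Acta2 and Cldn7 of the same list went the other way, by 0.65 (SE 0.22) and 0.34 (SE 0.14), with all null samples above all wild-type samples. Between 51.8% and 56.2% of gene spots were well above background on an array. All arrays shared 1 slide and 1 scan, wild type in row 1 and null in row 2, so genotype and the row on the slide cannot be told apart.

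Levels below are log2 processed signals centred on each array's 75th percentile, and differences are null minus wild type, so a difference of 1 is a doubling. They describe 1 probe across samples and are not compared between genes. Among all 24613 entries tested, 136 (0.553%) passed an adjusted p of 0.05 by limma, 54 higher and 82 lower in null cells. Without null sample 3 these counts were 239 and 496, and without any other single array they were 1 to 19 higher and 6 to 30 lower. None of the 9 measured heat shock genes passed, by limma on these values or in any of the 18 alternative settings; 1 of 9, Hspa1a, had an unadjusted p under 0.05, against 22.7% of all entries, so the members' share was not above the background. The groups did not overlap for 3 of the 8 members with a value on every array, against 31.2% of all entries. Differences were above 0 for 6 of 9 members, against 52.4% of all entries; the median difference of the 9 genes was 0.02, and that of all entries was 0.03. Over the 13 probes kept, adjusted p-values over all kept probes ran from 0.207 to 0.969, where 0.658% of kept probes passed.

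**Figure D2:**
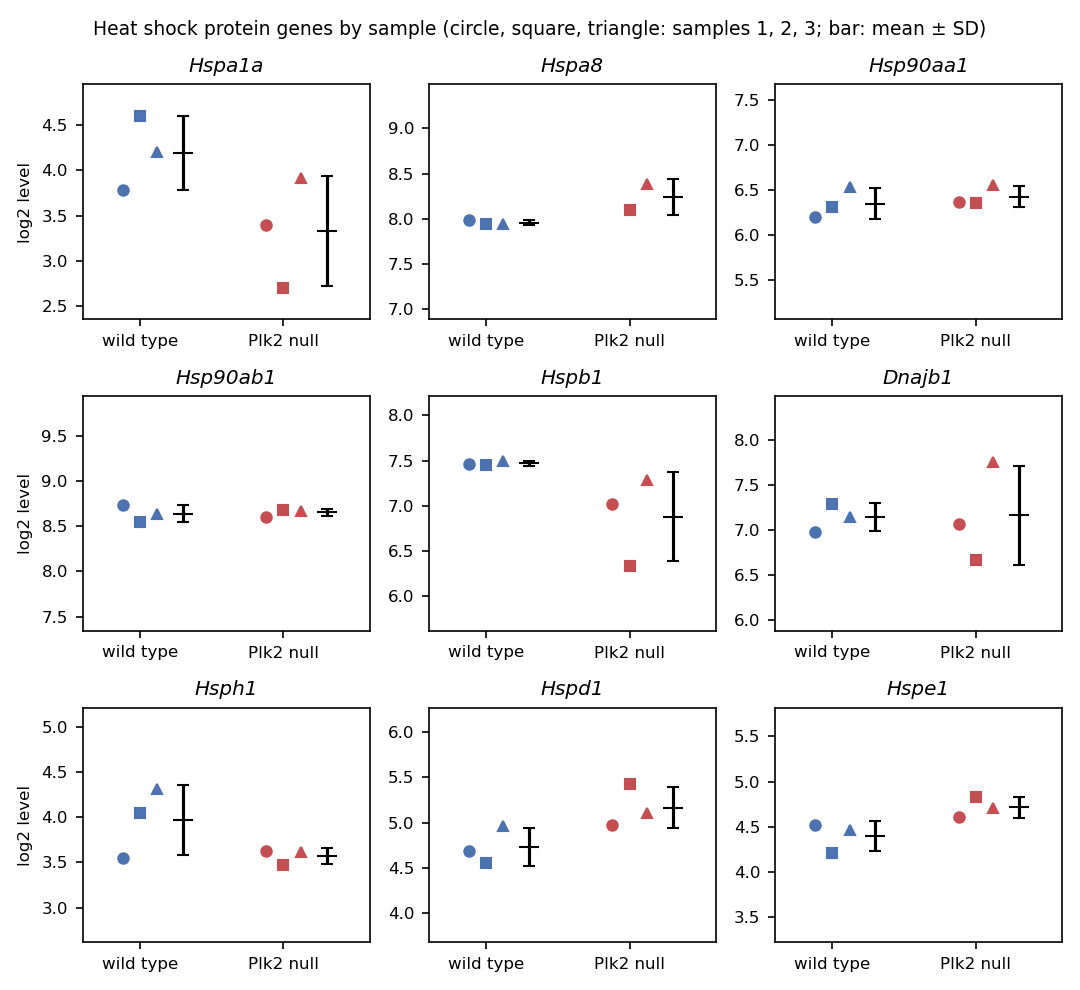
Log2 level of each of 9 heat shock genes in each sample, with an axis range of the same length in every panel; circles, squares and triangles are samples 1, 2 and 3, and bars give the mean and SD of a group. Wild-type values of Hspb1 lie within 0.05 of each other while null values spread over 0.96, and Hspd1 and Hspe1 have all null samples above all wild-type samples.

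Hspa1a encodes the stress-inducible HSP70, which cells make little of until proteins unfold. Its log2 level was 3.79, 4.60 and 4.20 in wild-type samples 1 to 3 and 3.39, 2.69 and 3.91 in null samples 1 to 3. Null samples 1 and 2 lay below every wild-type sample, while null sample 3 lay above wild-type sample 1, so the groups overlapped. The means were 4.20 ± 0.41 and 3.33 ± 0.61 (SD, n = 3 each), a difference of -0.86 (SE 0.35; 95% confidence interval -1.70 to -0.03; limma unadjusted p = 0.045, adjusted p = 0.209), or 1.82-fold lower in null cells, which did not pass over all entries. Without null sample 2 the difference was -0.55, and without null sample 3 it was -1.15. Hspa1b encodes a near-identical protein from a neighbouring gene, and whether this probe also reads Hspa1b RNA was not tested.

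Hspa8 encodes the constitutive HSP70 of the cytosol, which also strips clathrin from vesicles. By its brightest probe the log2 level was 7.99, 7.95 and 7.94 in wild-type samples and 8.10 and 8.38 in null samples 2 and 3; the spot of null sample 1 was marked as an outlier by the scanner software and left out of the fit. The difference was 0.29 (SE 0.17; limma adjusted p = 0.373). It was 0.14 without null sample 3 and 0.43 without null sample 2, and each of these values rests on 1 null array. With that spot kept, null sample 1 lay at 7.69, below every wild-type sample, and the difference was 0.10 (adjusted p = 0.787), so the separation of the groups rests on the omitted value. The other 2 Hspa8 probes, with a value in all samples, gave 0.12 (SE 0.16) and 0.13 (SE 0.14) and overlapping groups.

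Both cytosolic HSP90 genes had differences near 0 under the main scaling. Hsp90aa1, the heat-inducible form, was at 6.20, 6.31 and 6.54 in wild-type and 6.36, 6.35 and 6.56 in null samples, a difference of 0.08 (95% confidence interval -0.30 to 0.45; limma adjusted p = 0.796). Hsp90ab1, the constitutive form, was at 8.74, 8.55 and 8.63 in wild-type and 8.61, 8.68 and 8.67 in null samples, a difference of 0.01 (95% confidence interval -0.31 to 0.33; adjusted p = 0.963). The null values of each gene lay inside or close to the range of the wild-type values. Both intervals belong to the main scaling, and a difference of the size seen for Hspa1a under that scaling lies outside them. Values moved with the scaling, to both sides of 0: quantile normalization gave -0.045 for Hsp90aa1 and -0.17 for Hsp90ab1, and spike-in scaling gave 0.36 and 0.30.

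Hspb1 encodes the small heat shock protein HSP25 (HSP27 in humans), which binds unfolded chains and actin filaments. Its log2 level was 7.46, 7.45 and 7.50 in wild-type samples and 7.02, 6.33 and 7.29 in null samples. Every null sample lay below every wild-type sample, null sample 2 by the most. The means were 7.47 ± 0.025 and 6.88 ± 0.49 (SD, n = 3 each), a difference of -0.59 (SE 0.25; 95% confidence interval -1.20 to 0.02; limma adjusted p = 0.228), or 1.51-fold lower, which did not pass. It was -0.32 without null sample 2. Among all entries, 12.1% had null samples that all lay lower than wild type.

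Dnajb1 encodes the inducible HSP40, a J-domain protein that delivers clients to HSP70. Its log2 level was 6.98, 7.29 and 7.15 in wild-type samples and 7.06, 6.67 and 7.75 in null samples. Null sample 2 lay below and null sample 3 above every wild-type sample, and the mean difference of 0.02 (SE 0.28; limma adjusted p = 0.969) covers values on both sides. The interval of that difference, -0.65 to 0.70, leaves a shift of either sign possible. Without null sample 3 it was -0.27, and without null sample 2 it was 0.27.

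Hsph1 encodes HSP110, the nucleotide exchange factor of cytosolic HSP70. By its brighter probe the log2 level was 3.55, 4.05 and 4.31 in wild-type samples and 3.62, 3.47 and 3.61 in null samples. Here the wild-type samples were spread, over 0.76, and the null samples close together, over 0.15; wild-type sample 1 lay among the null values. The difference was -0.40 (SE 0.22; limma adjusted p = 0.320) and that of the second probe -0.42 (SE 0.23; adjusted p over all kept probes = 0.323). Without wild-type sample 1 the first was -0.61, and without wild-type sample 3 it was -0.23.

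Hspd1 encodes the mitochondrial chaperonin HSP60. Its log2 level was 4.69, 4.55 and 4.96 in wild-type samples and 4.97, 5.42 and 5.10 in null samples. All null samples lay above all wild-type samples, null sample 1 by 0.02. The difference was 0.43 (SE 0.19; 95% confidence interval -0.01 to 0.88; limma adjusted p = 0.229), or 1.35-fold higher.

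Hspe1 encodes HSP10, the lid of the same chaperonin. By its brightest probe it was at 4.52, 4.21 and 4.46 in wild-type and 4.61, 4.84 and 4.71 in null samples, again with all null samples above all wild-type samples. The difference was 0.32 (SE 0.16; limma adjusted p = 0.273), or 1.25-fold higher, and a second probe gave 0.28 (SE 0.17; adjusted p over all kept probes = 0.373) with overlapping groups. The third Hspe1 probe did not rise well above background in any sample and was not tested. Among all entries, 19.1% had null samples that all lay higher than wild type.

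**Figure D3:**
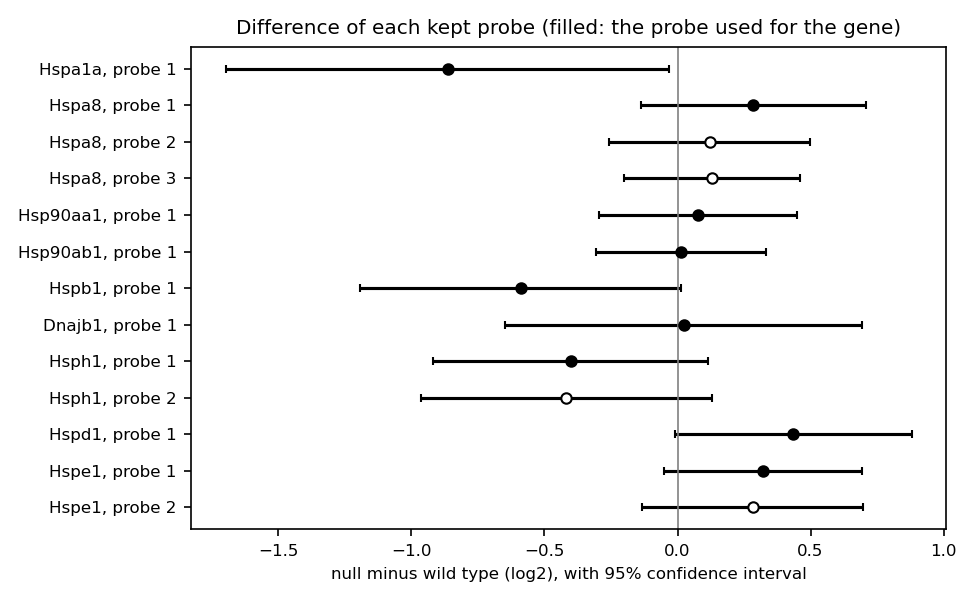
Difference between null and wild type for each of the 13 kept probes, with its 95% confidence interval from limma; filled points are the probes used for the gene. Probes of 1 gene lie on the same side of 0, and the interval of Hspa1a alone does not reach 0 before adjustment.

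Of the 18 alternative settings, 12 changed the differences of Hspa1a, Hspb1 and Hspd1 and 13 those of Hsph1 and Hspe1, while the others left them as they were by construction. Under the settings that changed a value, it stayed negative for Hspa1a, Hspb1 and Hsph1 and positive for Hspd1 and Hspe1. Sizes moved with the scaling. Scaling on spike-in controls moved the median of all entries to 0.31, and Hspa1a, Hspb1 and Hsph1 then stood at -0.58, -0.30 and -0.11, and Hspd1 and Hspe1 at 0.72 and 0.61. This scaling shifts each array as a whole, so values relative to that median (-0.89, -0.62, -0.43, 0.41 and 0.29) are by construction those of the main scaling.

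The range over the null samples was wider than over the wild-type samples for Hspa1a (1.22 against 0.82) and Hspb1 (0.96 against 0.049). It was also wider for Dnajb1 (1.08 against 0.31) and Hspd1 (0.45 against 0.41). The null range was narrower for Hsph1 (0.15 against 0.76), Hsp90aa1 (0.20 against 0.34), Hsp90ab1 (0.071 against 0.19) and Hspe1 (0.23 against 0.32). Null sample 2 was the lowest of all 6 samples for Hspa1a, Hspb1, Dnajb1 and Hsph1 and the highest for Hspd1 and Hspe1. Against the wild-type mean it stood at -1.50 for Hspa1a, -1.14 for Hspb1, -0.47 for Dnajb1 and -0.50 for Hsph1. Null sample 3 stood at -0.29, -0.18, 0.61 and -0.36 for the same genes. For Hspd1, null samples 1 to 3 stood at 0.24, 0.69 and 0.37, and for Hspe1 at 0.21, 0.44 and 0.32. In the same 3 samples the median of 19 immediate early genes, which respond within minutes to cell disturbance, stood at -0.11, -0.46 and 0.51, and the median of 18 cell division genes at 1.22, 2.92 and 1.34. The part of either in the levels of the heat shock genes was not tested.

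**Figure D4:**
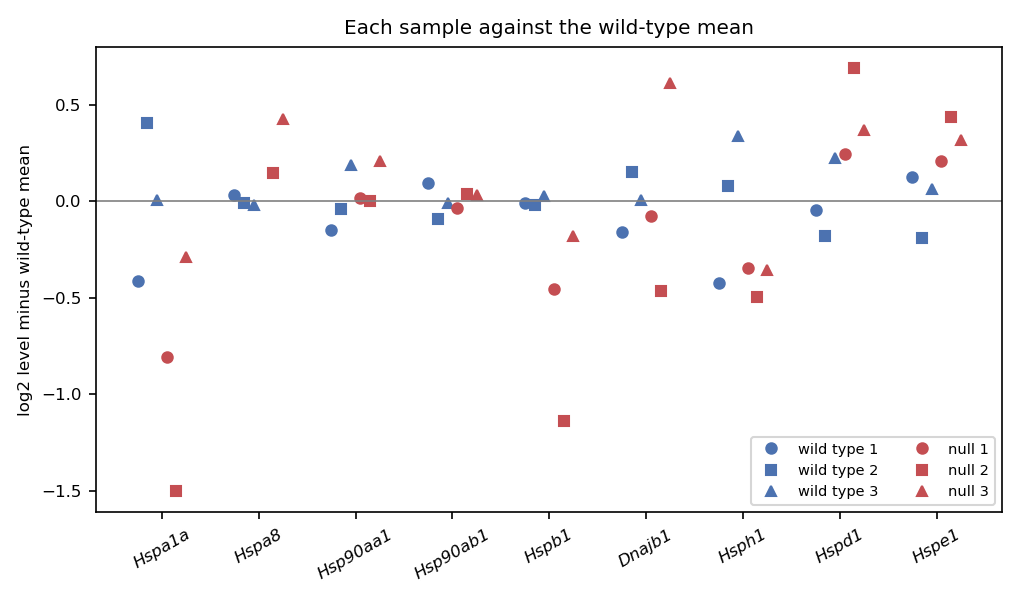
Log2 level of each sample minus the wild-type mean for 9 heat shock genes; blue marks wild type, red marks null, and shapes give the sample number. Null sample 2 is lowest for Hspa1a and Hspb1, at -1.50 and -1.14, and null sample 3 is highest for Dnajb1, at 0.61; Hspa8 has no value for null sample 1.

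Markers of other cell types were also measured in these preparations. An unadjusted limma p under 0.05 with null lower was reached by 11 of 12 lymphocyte, 5 of 8 fibroblast, 2 of 9 myeloid and 1 of 9 endothelial markers. Among all entries the share was 9.64%. With null higher it was reached by 1 of 9 myeloid markers, against 13.1% of all entries. No adipocyte or skeletal muscle marker reached it in either direction. All 12 lymphocyte markers tested had a negative difference (median -2.44), with a summed log2 level of 4.58 to 5.34 in wild-type and 2.65 to 3.60 in null samples. All 8 fibroblast markers were negative (median -0.45; summed level 10.88 to 11.06 against 10.31 to 10.76), as were all 9 endothelial markers (median -0.44; 7.33 to 7.85 against 6.70 to 7.59) and 8 of 9 macrophage and myeloid markers (median -0.49; 7.05 to 7.50 against 7.05 to 7.21). Adipocyte markers had a median of 0.23 (5 of 7 positive; 8.10 to 8.57 against 8.10 to 8.88), which was -0.14 without wild-type sample 2 and -0.019 without null sample 1, and skeletal muscle markers -0.09 (2 of 7 positive; 0.38 to 0.67 against 0.47 to 0.84), which was 0.20 with spike-in scaling, 0.022 without null sample 1 and 0.11 without null sample 2. No tested marker of these lists was below background on all arrays of a group, and none passed over all entries (limma). In null samples 1 to 3 the list medians against the wild-type mean stood at -2.90, -3.11 and -1.33 for lymphocyte and -0.45, -0.88 and -0.11 for myeloid markers. They stood at -0.40, -0.61 and -0.28 for fibroblast and -0.25, -0.81 and 0.05 for endothelial markers. Each of these medians was lowest in sample 2 and highest in sample 3. Among the null samples Hspa1a, Hspb1, Dnajb1 and Hsp90aa1 had that order as well. Hsph1 did not, and Hsp90ab1, Hspd1 and Hspe1 were highest in sample 2. Some of these placements rest on near ties. Hsp90aa1 stood at 6.364 and 6.352 in null samples 1 and 2, and Hsph1 at 3.624 and 3.614 in null samples 1 and 3. Hsp90ab1 stood at 8.677 and 8.672 in null samples 2 and 3. The share of all entries with that order was not counted, so these placements stand without a background. In bulk samples fewer cells of a type and less RNA per cell cannot be told apart, and the part of these cells in the levels of the heat shock genes was not tested.

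Chaperone genes outside the 10 were described by lists, none of which had a gene past the threshold over all entries (limma). The cytosolic chaperonin TRiC and prefoldin, which fold actin and tubulin, had a positive difference in 14 of 14 genes with a median of 0.35; 8 had an unadjusted p under 0.05 with null higher, against 13.1% of all entries, and for 9 all null samples lay above all wild-type samples, against 19.1%. Pfdn6 and Pfdn1, subunits of prefoldin, differed by 0.59 (SE 0.17) and 0.45 (SE 0.14), and the TRiC subunit gene Tcp1 by 0.50 (SE 0.17), with adjusted p from 0.118 to 0.155. Mitochondrial chaperones and proteases were positive in 11 of 13 with a median of 0.37. Of these 13, 6 had an unadjusted p under 0.05 with null higher, against 13.1% of all entries. For 6 of 13 all null samples lay above all wild-type samples, against 19.1%. Dnajc19, of the inner membrane import motor, differed by 0.66 (SE 0.18), Grpel1, the nucleotide exchange factor of mitochondrial HSP70, by 0.45 (SE 0.13) and Trap1, the mitochondrial HSP90, by 0.61 (SE 0.18), with adjusted p from 0.110 to 0.128. The list's Hspa9, the mitochondrial HSP70 itself, differed by -0.00070 (SE 0.15) and was singled out after its value was seen. The median of TRiC and prefoldin lay 0.32 above that of all entries, 0.27 with quantile normalization, 0.32 with the deposited values and 0.42 with normexp background correction. For the mitochondrial list these values were 0.34, 0.30, 0.27 and 0.33. Beside these, 18 of 18 cell division genes were positive (median 1.75), of which the helicase gene Mcm3 passed over all entries (1.55, SE 0.18; limma adjusted p = 0.0284). The checkpoint kinase gene Bub1 differed by 2.56 (SE 0.47) and the spindle gene Nusap1 by 2.39 (SE 0.46), with adjusted p of 0.0638 and 0.0694.

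Co-chaperones of HSP70 and HSP90 were positive in 14 of 20, with a median of 0.23. An unadjusted p under 0.05 with null higher was reached by 4 of 20, against 13.1% of all entries, and for 10 of 20 all null samples lay above all wild-type samples, against 19.1%. Cacybp, a partner of HSP90 and of ubiquitin ligases, differed by 0.51 (SE 0.16), the HSP70 regulator Bag2 by 0.45 (SE 0.15) and Sugt1, an HSP90 adaptor, by 0.47 (SE 0.16), with limma adjusted p from 0.133 to 0.156. Other J-domain genes were positive in 9 of 15 (median 0.10); Dnajc7, which bridges HSP70 and HSP90, was at 4.46, 4.54 and 4.36 in wild-type and 5.06, 5.12 and 5.05 in null samples, a difference of 0.62 (SE 0.13; adjusted p = 0.0806). The null values of Dnajc7 lay close together and above all wild-type values. Dnajc9, a histone chaperone, differed by 0.90 (SE 0.25; adjusted p = 0.117) and the ribosome-associated Dnajc2 by 0.46 (SE 0.14; adjusted p = 0.128).

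Other HSP70 family genes showed no common sign, with 4 of 9 positive and a median of -0.00070, which is the value of Hspa9. This list shares Hspa9 with the mitochondrial list and Hspa5 with the endoplasmic reticulum list below. Hspa14, a ribosome-associated member, differed by 0.38 (SE 0.18), Hspa12b by 0.43 (SE 0.22) and Hspa2 by -0.41 (SE 0.25), with limma adjusted p from 0.258 to 0.373. Other small heat shock genes were negative in 5 of 7 (median -0.29), and in null samples 1 to 3 their median stood at -0.37, -0.78 and 0.20. The lens crystallin gene Cryaa differed by -1.14 (SE 0.33; adjusted p = 0.120), Hspb8, a partner of BAG3, by -0.45 (SE 0.22; adjusted p = 0.265) and Hspb9 by 0.61 (SE 0.33; adjusted p = 0.320).

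Genes of the endoplasmic reticulum chaperone system and the unfolded protein response were negative in 15 of 24, with a median of -0.16, and 3 had an unadjusted p under 0.05 with null lower, against 9.64% of all entries. The stress sensor genes Ern1 and Atf6 differed by -0.64 (SE 0.20) and -0.41 (SE 0.17) and the degradation factor gene Herpud1 by -0.41 (SE 0.16), with limma adjusted p from 0.141 to 0.207. The list's median turned to 0.12 with spike-in scaling, which lies 0.19 below the median of all entries there. Of the heat shock factors, Hsf1, the main activator of the heat shock response, differed by -0.19 (SE 0.15; adjusted p = 0.477), Hsf4, well above background on 2 of 3 arrays of each group, by -1.10 (SE 0.50; adjusted p = 0.246) and Hsbp1, a small protein that binds the HSF1 trimer, by 0.46 (SE 0.14; adjusted p = 0.139).

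Other genes known to be induced by heat, a list that shares members with the HSP70 family, co-chaperone, J-domain and small heat shock lists, were positive in 6 of 15 with a median of -0.10. That median depended on the processing: it was 0.19 with spike-in scaling, -0.26 with quantile normalization and with the deposited values, and 0.021 without null sample 2. Cacybp, given above, the HSP90 co-chaperone gene Fkbp4, with 0.58 (SE 0.21; limma adjusted p = 0.174), and Ahsa1, which speeds the ATPase of HSP90, with 0.34 (SE 0.15; adjusted p = 0.230), had the smallest p. In null samples 1 to 3 the list's median stood at -0.11, -0.27 and 0.13. Of the immediate early genes 5 of 19 were positive (median -0.09, which turned to 0.19 with spike-in scaling and to 0.12 without null sample 2); Egr3 differed by 0.62 (SE 0.19), Egr2 by 0.34 (SE 0.20) and Fosl1 by -0.30 (SE 0.18), with adjusted p from 0.139 to 0.370. In wild-type samples the Egr3 probe stood well above background in 2 of 3.

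**Figure D5:**
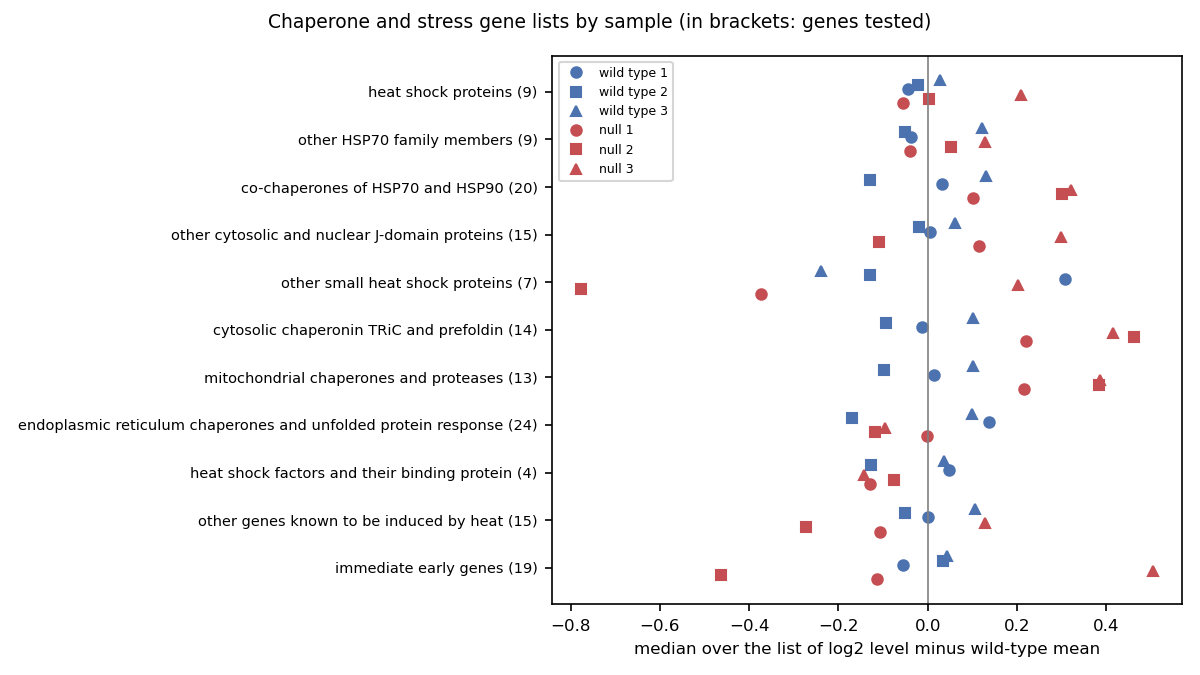
Median over each gene list of the log2 level minus the wild-type mean, for each sample; blue marks wild type, red marks null, and the number of genes tested follows each name. TRiC and prefoldin and the mitochondrial list have all null samples above all wild-type samples, while immediate early genes run from -0.46 in null sample 2 to 0.51 in null sample 3.

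The 6-array profile of Hspa1a was most like that of 8 other genes, of 4649 named genes outside the 10 with a range of at least 1 log2 unit. These were Hbegf, an EGF family growth factor gene (Pearson r over 6 arrays = 0.997), Tll1 (0.996), Bcr (0.993), Inpp4b (0.993), Msx1 (0.991), the endothelial and platelet adhesion gene Selp (0.991), Gpnmb (0.987) and Ucp1, the uncoupling protein of brown fat (0.985). With 6 arrays in 2 groups and 4649 candidates such values are a description of likeness in these samples. Hbegf, for one, was at 5.10, 5.63 and 5.30 in wild-type and 4.82, 4.42 and 5.13 in null samples, lowest in null sample 2 as Hspa1a was, and its limma adjusted p was 0.225.

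In the authors' deposited table, which rests on quantile-normalized intensities, none of the 14 probes passed both of its thresholds, on p and on fold. The share of all probes that passed both was not counted here, so this count stands without a background. That deposited table by the authors gives Hspb1 an unadjusted p of 0.0321 and a ratio of wild type over null of 1.67, and Hspa1a a p of 0.0703 and a ratio of 1.93. For Hspd1 the authors' deposited table gives a ratio of 0.824 (p = 0.262) and for the brightest Hspe1 probe 0.812 (p = 0.0786). The directions of these 4 genes are those found here, while 3 others had the opposite one. In the authors' deposited table the ratio of wild type over null was 1.20 for Hsp90ab1, 1.04 for the Hspa8 probe used here and 1.02 for Dnajb1, where the differences here were 0.01, 0.29 and 0.02 with null higher.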

How the data were processed

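The arrays were read with Agilent Feature Extraction, per the file headers. The intensity used is the deposited processed signal, background-corrected by the scanner software, per the file headers, and not normalized between arrays; deposited median spot and background intensities served a normexp alternative. The authors also deposited a series table with normalized intensities, an unadjusted p-value, a signed fold (a score below 0 where null is lower) and a ratio with wild type as numerator; which tools made it is not stated there.

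Log2 processed signals were centred on each array's 75th percentile over 59305 gene spots, without control spots. Spots marked as outliers counted in that percentile and were left out afterwards. No spot was saturated. Probes were named through RefSeq transcripts (26582 of 55681 probes), kept if well above background on at least 3 of 6 arrays, and the brightest kept probe stood for a gene. This gave 24613 entries with 44 missing values, fitted in R 4.3.3 with limma 3.58.1 (lmFit, eBayes), p-values adjusted by Benjamini-Hochberg; the steps were tested on simulated data. The number of arrays limits the precision. Members and lists were chosen with earlier results of these data known. The text names every member, Plk2, of each chaperone and stress list the 3 genes with the smallest p and any past the threshold, 5 epithelial markers and the 8 genes most like Hspa1a. Outside this rule, Elf5, Cldn4, Trp63, Acta2, Cldn7 and Hspa9 were named after their values were seen. Lists are described by counts and medians without a set test. Alternatives covered background correction, scaling, filters, probe choice, array weights, variance moderation, blocking on replicate number, leaving out single arrays and the deposited values; keeping outlier spots was added after seeing the data.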

Additional observations from a re-analysis of the deposited data

How the results depend on the processing

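None of the 9 measured heat shock genes passed in any of 18 alternatives, and their sign turned in 11 of the gene-by-setting values, all with adjusted p of 0.272 or more. Dnajb1 stood at -0.13 with quantile normalization, -0.022 with the deposited table's values, -0.15 with array weights, -0.057 without wild-type sample 1 and -0.27 without null sample 3, and from -0.27 to 0.27 over the 6 fits without 1 array. Hsp90ab1 stood at -0.054 with normexp, -0.17 with quantile normalization, -0.26 with the deposited table's values and -0.033 without wild-type sample 2 (-0.033 to 0.061 without 1 array); Hsp90aa1 at -0.045 with quantile normalization; Hspa8 at -0.057 with the deposited table's values. With the mean of a gene's probes Hspa8 stood at 0.0042, where null sample 1 lacks its brightest probe. The members' median moved beyond its spread between samples with quantile normalization (-0.13) and spike-in scaling (0.31) only, and leaving out 1 array did not move it so. Of 324 list medians under alternatives, 86 equalled the main value, many of them by construction; of the 238 that differed, 221 stayed within their spread between samples, 17 moved beyond it and 17 changed sign.

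Counts over all entries depended on the processing far more, and the cause was not tested. Entries higher and lower numbered 696 and 522 with normexp, 176 and 164 with median centring, 250 and 125 with spike-in scaling, 387 and 383 with the deposited table's values, 5 and 26 with no filter on dim probes, 203 and 179 with probes well above background on all 6 arrays, 443 and 388 with trend and robust moderation and 556 and 694 with array weights. Leaving out 1 array gave 1 to 239 higher and 6 to 496 lower. With the replicate number as a block, which is also the slide column, the counts were 2 and 6. Deviations from the group means of same-numbered samples correlated at -0.12, 0.038 and -0.018, no sample correlated best with its own number, and the samples were not treated as pairs. Signal over background does not limit the members, since each used probe was well above background on all arrays.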
